A study of Mus musculus with 6 samples.

Results

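The Wnt ligand and receptor genes described here are 10 genes named for this comparison out of 31017 in the deposited count table. They are the 5 ligand genes Wnt4, Wnt5a, Wnt7a, Wnt7b and Wnt10a, the 3 Frizzled receptor genes Fzd1, Fzd6 and Fzd7, and the 2 coreceptor genes Lrp5 and Lrp6. They were found by their symbols in the first column. RNA came from 4T1, a mouse mammary carcinoma cell line, nucleofected with Cas9 and guide RNAs and cultured in 3D gels of collagen I. The control group (3 libraries) received control guides, and the ETV4 KO group (3 libraries) received guides against Etv4, an ETS transcription factor gene. Both groups thus carry the same Cas9 treatment and the same gel culture. The ETV4 KO libraries share 1 name code that the sources used here do not explain, so it is not known whether they come from a single derived line. The labels do not say that replicates were separate cultures, and the p-values measure only the spread between these libraries.

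Wnt proteins are secreted, lipid-modified signals that bind a Frizzled receptor together with the coreceptor LRP5 or LRP6. In the canonical branch this stops the destruction of beta-catenin, which then acts with TCF/LEF factors on target genes, and other branches steer cell polarity and movement. In the mammary gland Wnt signals are known for their part in branching and in maintaining stem-like basal cells.

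Total counts ran from 22355015 to 29042569 per library, and 12076 genes passed the filter on low counts and were tested. Etv4 itself had 3098, 3648 and 3030 counts in control replicates 1 to 3 and 2503, 2217 and 2207 in ETV4 KO replicates 1 to 3. It fell by 0.58 on the log2 scale (SE 0.036), while expressed genes in the same 10 Mb of chromosome 11 had a median of -0.46. Counts over the whole gene do not show whether the protein was lost. The chi-square per degree of freedom of the counts was 1.86 to 4.01 for pairs of libraries in a group and 51.7 to 65.9 for pairs across groups. Of 6 mammary epithelial markers 5 were tested; Krt5 had at most 1 count per library. Their summed level was 4654 to 4790 CPM (counts scaled to a common library size with TMM factors) in control and 3293 to 3437 CPM in ETV4 KO. The 6 fibroblast markers summed to 9.87 to 11.7 CPM in control and 12.9 to 14.6 CPM in ETV4 KO, nearly all from Pdgfra, with Lum at 0 and Dcn at no more than 1 count per library. Immune, endothelial and adipocyte marker sums stayed at or below 0.923 CPM in each library. The part of these shifts in the Wnt results was not tested.

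The 10 genes lay apart in the mm10 genome, by GENCODE M21. Wnt7a (91363981 to 91411363) and Lrp6 (134446476 to 134566965) are on chromosome 6. Wnt7b (85535437 to 85582473) and Fzd6 (39006034 to 39038188) are on chromosome 15, and Wnt10a (74791516 to 74804179) and Fzd7 (59482424 to 59486955) on chromosome 1. Wnt4 (137277489 to 137299726) is on chromosome 4, Wnt5a (28504750 to 28527448) on chromosome 14, Fzd1 (4753839 to 4758035) on chromosome 5 and Lrp5 (3584828 to 3686564) on chromosome 19.

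The RefSeq promoter table (GRCm38.p6) held 4 of the 10 genes: Fzd7, Wnt4, Fzd1 and Wnt7a. The 250 bases before the start are printed for Fzd1 and Fzd7, the 2 genes here with the largest falls, and for Wnt7a, which rose. Capitals mark GGAAG, the letters searched for the ETS family to which Etv4 belongs, or CTTCC where they read on the other strand. The shorter core of that family, GGAA or TTCC, also occurs unmarked in the Fzd7 and Wnt7a windows and was not counted. RefSeq and GENCODE place the start of each printed gene at different bases, and the distances given below count from the RefSeq start.
Fzd7, chr1:59481897-59482146, plus strand: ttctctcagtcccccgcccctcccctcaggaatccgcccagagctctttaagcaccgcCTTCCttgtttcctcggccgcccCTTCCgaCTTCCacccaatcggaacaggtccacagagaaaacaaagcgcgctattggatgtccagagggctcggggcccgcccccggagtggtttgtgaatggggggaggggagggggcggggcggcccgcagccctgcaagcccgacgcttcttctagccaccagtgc
Fzd1, chr5:4758217-4758466, minus strand: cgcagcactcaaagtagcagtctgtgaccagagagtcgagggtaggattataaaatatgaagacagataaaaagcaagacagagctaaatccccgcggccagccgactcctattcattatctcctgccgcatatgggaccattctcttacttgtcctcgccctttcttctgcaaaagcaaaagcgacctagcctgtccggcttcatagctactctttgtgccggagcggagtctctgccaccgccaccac
Wnt7a, chr6:91411354-91411603, minus strand: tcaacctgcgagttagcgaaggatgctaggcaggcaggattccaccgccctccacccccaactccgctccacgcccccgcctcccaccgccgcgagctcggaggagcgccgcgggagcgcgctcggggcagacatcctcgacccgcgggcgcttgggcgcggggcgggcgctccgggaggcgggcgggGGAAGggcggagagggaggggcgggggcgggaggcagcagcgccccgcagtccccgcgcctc

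The Fzd7 window held 3 matches to GGAAG or CTTCC, at 192, 169 and 162 bases before the start, and the Wnt7a window held 1, at 62 bases. The Fzd1 window held 0. The same letters were found in 64.1% of all 32851 RefSeq windows of 250 bases. The TCF/LEF letters CTTTGA, searched on both strands, were found once, in Fzd1 at 242 bases before the start, against 13.8% of all windows. These matches describe the sequence and show no binding.

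In ETV4 KO cells the most abundant ligand genes moved in opposite directions, with Wnt7a higher and Wnt7b lower. Among receptors Fzd1 and Fzd7 were lower and Fzd6 was higher, and the coreceptor genes differed little, with Lrp5 higher and Lrp6 lower. Of the 10 genes 8 passed the filter; edgeR, with adjusted p below 0.05, called 3 higher and 5 lower. Of all tested genes 71.1% were called, 35.0% higher and 36.0% lower, so calls were the rule in this comparison. The groups did not overlap for any of the 8, against 72.7% of all tested genes. Called and at least 1.5-fold apart were 2 of the 8, Fzd1 and Fzd7, against 21.1% of all tested genes. In bulk RNA, fewer cells that express a gene and less RNA per cell cannot be told apart.

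**Figure D1:**
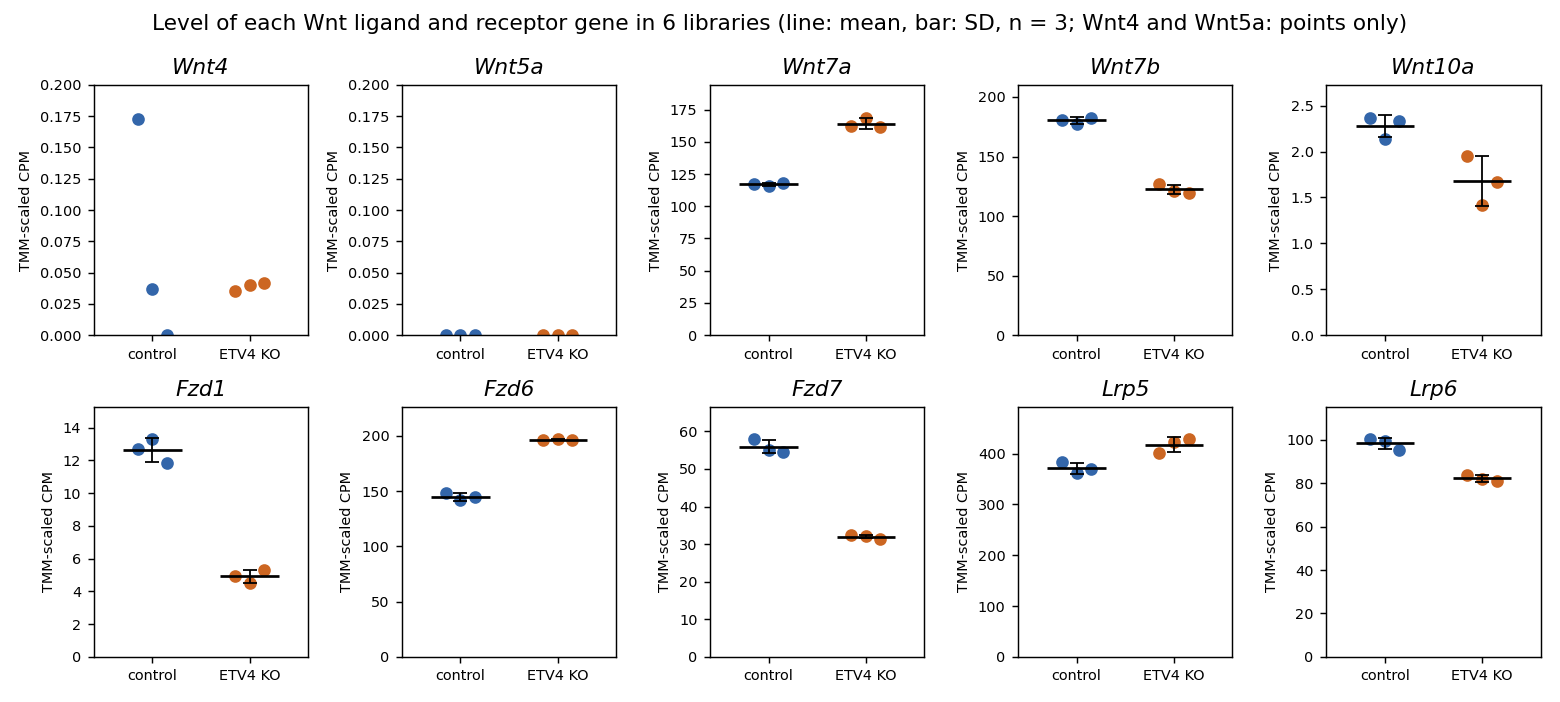
Each panel plots 1 gene, with the TMM-scaled CPM of each library on a linear axis from 0 and points for the 3 control and 3 ETV4 KO libraries; lines are means and bars SDs (n = 3), left out for Wnt4 and Wnt5a. Wnt7a and Fzd6 lie higher in ETV4 KO (Wnt7a 164.2 against 117.0 CPM on average), Fzd1 and Fzd7 lie lower, and Wnt5a is at 0 throughout.

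Wnt7a, a ligand known from limb patterning and nervous system development, had 117.1, 115.8 and 118.0 CPM in the controls and 162.1, 168.8 and 161.7 CPM in ETV4 KO. All 3 ETV4 KO libraries lay above all controls, and the spread within each group was small. Control libraries averaged 117.0 CPM ± 1.08 and ETV4 KO libraries 164.2 CPM ± 3.99 (SD, n = 3 each); the rise was 0.49 on the log2 scale (SE 0.035, edgeR adjusted p = 2.00e-13). Genes within the same 10 Mb had a median of -0.11, so Wnt7a rose against lower neighbours.

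Wnt7b, its closest relative in the family and a ligand known from lung development, had 181.0, 177.3 and 182.7 CPM in the controls and 126.9, 120.6 and 119.8 CPM in ETV4 KO. Here all 3 controls were the higher libraries. Controls averaged 180.3 CPM ± 2.75 against 122.4 CPM ± 3.90 (SD, n = 3 each), and the gene fell by 0.56 on the log2 scale (SE 0.035, edgeR adjusted p = 1.26e-14). An antisense transcript, AU022754, overlaps 324 exonic bases of Wnt7b and had 6 to 21 counts per library, far below the 2863 to 4802 counts of Wnt7b.

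The 2 changes together turned the balance of this pair. Levels of different genes can be compared only per length. With the exon lengths of GENCODE M21 (3172 bases for Wnt7a, 4898 for Wnt7b) the means in the controls were 36.9 CPM per kb ± 0.341 for Wnt7a and 36.8 CPM per kb ± 0.561 for Wnt7b (SD, n = 3 each). In ETV4 KO they stood at 51.8 ± 1.26 and 25.0 ± 0.797 CPM per kb (SD, n = 3 each). The ratio of Wnt7a to Wnt7b per kb was 0.999, 1.01 and 0.997 in the controls and 1.97, 2.16 and 2.09 in ETV4 KO. With these lengths the pair was level in the controls, and Wnt7a led in each ETV4 KO library. With the shorter Wnt7b of the basic annotation (4613 bases), an alternative chosen after seeing the data, Wnt7b led in the controls without overlap (38.4 to 39.6 against 36.5 to 37.2 CPM per kb), and Wnt7a still led in ETV4 KO (51.0 to 53.2 against 26.0 to 27.5). The sources used here do not say how the authors placed reads that map to similar family members.

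Wnt10a, a ligand known from skin appendages and teeth, had few counts and a small difference. Control libraries held 55, 58 and 53 of its counts and ETV4 KO libraries 56, 35 and 40, which is 2.37, 2.14 and 2.33 CPM against 1.96, 1.41 and 1.67 CPM. The scaled values did not overlap, although ETV4 KO replicate 1, the deepest library, had as many counts as the controls. It was called lower at -0.43 (log2, SE 0.19, edgeR adjusted p = 0.0452). The call was lost with DESeq2 (adjusted p = 0.112), without any 1 of the control libraries (0.0551 to 0.105) and without ETV4 KO replicate 2 (0.173) or 3 (0.0840), and 8 of 18 settings, the reported one included, kept it.

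Wnt4 and Wnt5a did not pass the filter. Wnt4, a ligand that acts downstream of progesterone in mammary branching, had 4, 1 and 0 counts in control libraries and 1 count in every ETV4 KO library. The ratio of control to ETV4 KO was 1.76 with a 95% Clopper-Pearson interval of 0.343 to 11.4, so a difference was not detectable at this depth. Wnt5a, the typical ligand of the non-canonical branch, had 0 counts in all 6 libraries, which allows up to 0.0411 CPM over the control group and 0.0388 CPM over the ETV4 KO group, by a limit of 3 counts. These limits cover counting error only.

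Fzd1, a receptor of the canonical branch, showed the largest fold change of the 8 tested genes. It had 12.7, 13.3 and 11.8 CPM in the controls and 4.96, 4.48 and 5.31 CPM in ETV4 KO. Each ETV4 KO library was below each control by a wide margin. The means of 12.6 CPM ± 0.735 and 4.92 CPM ± 0.416 (SD, n = 3 each) differed 2.57-fold, or by -1.36 on the log2 scale (SE 0.097, edgeR adjusted p = 2.34e-13). The median of its neighbours within 10 Mb was 0.18, in the other direction.

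Fzd7, a receptor known from stem cells of the gut and mammary gland, had 57.9, 55.2 and 54.6 CPM in the controls and 32.5, 32.1 and 31.5 CPM in ETV4 KO. The ETV4 KO values were close together and all below the controls. The means were 55.9 CPM ± 1.75 and 32.0 CPM ± 0.498 (SD, n = 3 each). Fzd7 fell by 0.80 on the log2 scale (SE 0.047, edgeR adjusted p = 3.00e-15), and its neighbours had a median of -0.011.

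Fzd6, a receptor mainly tied to planar cell polarity and hair patterning, had 148.5, 141.6 and 145.0 CPM in the controls and 196.0, 197.0 and 196.5 CPM in ETV4 KO. It was higher in each ETV4 KO library, with nearly equal values in that group. The difference of 0.44 on the log2 scale (SE 0.034) had an edgeR adjusted p of 1.07e-12. The 32 expressed neighbours within 10 Mb had a median of 0.39 and a 5th to 95th percentile range of -0.25 to 0.75. With that local median taken out the value was 0.050 (adjusted p = 0.189) and the call was lost.

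Lrp5, a coreceptor known from bone mass and retinal vessels, had 383.0, 362.5 and 368.9 CPM in the controls and 401.3, 423.9 and 428.3 CPM in ETV4 KO. The groups were separate but near each other. Lrp5 was 1.12-fold higher, 0.17 on the log2 scale (SE 0.033, edgeR adjusted p = 4.30e-05). Its neighbours had a median of 0.10, and with this taken out the value was 0.071 (adjusted p = 0.0619), no longer called.

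Lrp6, the other coreceptor, needed for canonical signalling in the embryo, had 100.2, 99.5 and 95.2 CPM in the controls and 83.9, 81.7 and 80.8 CPM in ETV4 KO. All ETV4 KO values were lower. Lrp6 was 1.20-fold lower, -0.26 on the log2 scale (SE 0.038, edgeR adjusted p = 5.74e-07), with a median of -0.045 among neighbours. The 5th to 95th percentile range of those neighbours, -0.58 to 0.35, held the Lrp6 value. Per kb of full-annotation length, Lrp5 exceeded Lrp6 by 5.11 to 5.44 times in the controls and by 6.71 to 7.44 times in ETV4 KO. These ratios depend on the lengths used. With basic-annotation lengths the means of Lrp5 and Lrp6 were 61.8 and 10.5 CPM per kb in the controls. In ETV4 KO they were 69.5 and 8.77 CPM per kb.

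**Figure D2:**
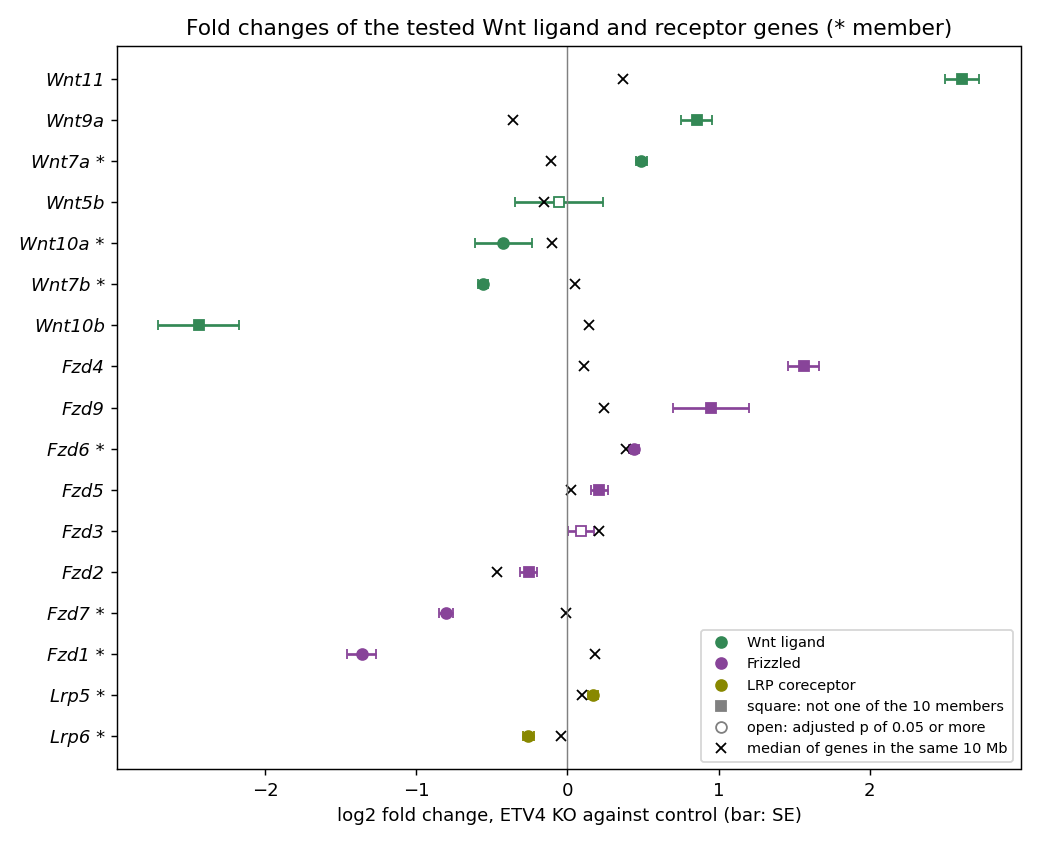
Log2 fold change of ETV4 KO against control with its SE for the 17 tested Wnt ligand, Frizzled and LRP genes; circles with a star in the label are among the 10 described, squares are not, open symbols were not called, and crosses mark the median of expressed genes within the same 10 Mb. Fzd6 (0.44) lies beside its cross (0.39), whereas Fzd1 (-1.36), Fzd7 (-0.80), Wnt7a (0.49) and Wnt7b (-0.56) lie away from theirs. The 5th to 95th percentile range of neighbours, not drawn, was -0.26 to 0.76 for Fzd1 and -0.72 to 0.55 for Fzd7. For Wnt7a it was -0.52 to 0.24 and for Wnt7b -0.33 to 0.42.

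The rest of the family was read from a list of all its genes in the table, 31 with the 10 above. Of the other 21 genes 9 were tested, 5 were called higher and 2 lower, and 5 had 0 counts in all libraries. Over all tested genes 71.1% were called, 35.0% higher and 36.0% lower, so this count does not set the family apart. Among ligands, Wnt11 and Wnt10b had fitted fold changes beyond those of the 8 tested genes above. Wnt11, a non-canonical ligand, rose from 56, 55 and 47 counts to 392, 330 and 303, or by 2.61 on the log2 scale (SE 0.11, edgeR adjusted p = 1.84e-18). Wnt10b, a canonical ligand of the early mammary bud, went the other way, from 49, 53 and 58 counts to 13, 7 and 11 (-2.44, SE 0.27, edgeR adjusted p = 2.36e-09). Its value thus had the same sign as that of Wnt10a and was larger. Wnt9a rose by 0.85 (SE 0.10; 1.22 with the local median taken out), and Wnt5b, with -0.055 (SE 0.29, edgeR adjusted p = 0.871), was not called. Of the ligands below the filter, Wnt2b had 38 counts over the control group and 20 over the ETV4 KO group (edgeR adjusted p = 0.0687 without the filter), and Wnt1 had 20 and 21.

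Among the other Frizzled genes, Fzd4, the receptor for Norrin in retinal vessels, rose from 102, 118 and 87 counts to 344, 295 and 321 (1.56 on the log2 scale, SE 0.10, edgeR adjusted p = 2.64e-14). Its rise thus ran against the falls of Fzd1 and Fzd7. Fzd9 had 0.95 (SE 0.25) from 12 to 26 counts per control library, Fzd5 had 0.21 (SE 0.057) and Fzd3 had 0.089 (edgeR adjusted p = 0.349). Fzd2, on chromosome 11 as is Etv4, was called lower at -0.26 (SE 0.058), but its neighbours had a median of -0.47, and with that taken out it was called higher at 0.21.

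Put per length, the ligand pool in these cells was nearly all Wnt7a and Wnt7b. Together they made up 94.3% to 94.6% of the summed CPM per kb of all 19 ligand genes in the control libraries and 91.0% to 91.1% in ETV4 KO. Within that pool Wnt7a went from 47.3% ± 0.149 to 61.4% ± 0.888 and Wnt7b from 47.2% ± 0.177 to 29.6% ± 0.940 (SD, n = 3 each); with basic-annotation lengths the means were 45.8% and 59.9% for Wnt7a and 48.6% and 30.7% for Wnt7b. The sum itself moved less, from 78.1 CPM per kb ± 0.915 to 84.4 CPM per kb ± 1.33 (SD, n = 3 each). Wnt11 went from 0.672% to 3.79% of the pool on average, and Wnt10a held 1.18% and 0.808%.

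The Frizzled pool was led by Fzd6, with 51.1% ± 0.805 of the summed CPM per kb of 10 Frizzled genes in the controls and 64.2% ± 0.345 in ETV4 KO (SD, n = 3 each). Fzd7 was next in both groups, with 21.0% ± 0.179 and 11.1% ± 0.164. Fzd2 followed with 12.5% ± 0.425 and 9.67% ± 0.473, and Fzd5 with 6.89% ± 0.228 and 7.39% ± 0.355. Fzd1 took 5.11% ± 0.289 and 1.85% ± 0.153, in ETV4 KO less than Fzd4 with 2.92% ± 0.197. The sum was 58.8 CPM per kb ± 1.33 in the controls and 63.5 CPM per kb ± 0.185 in ETV4 KO, so shares moved more than the total. The ratio of Fzd6 to Fzd7 per kb was 2.41, 2.41 and 2.50 in the controls and 5.68, 5.78 and 5.87 in ETV4 KO. These shares follow from the fold changes above and were not tested on their own. They were not computed with local medians taken out, a setting in which Fzd6 had 0.050 and was not called.

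**Figure D3:**
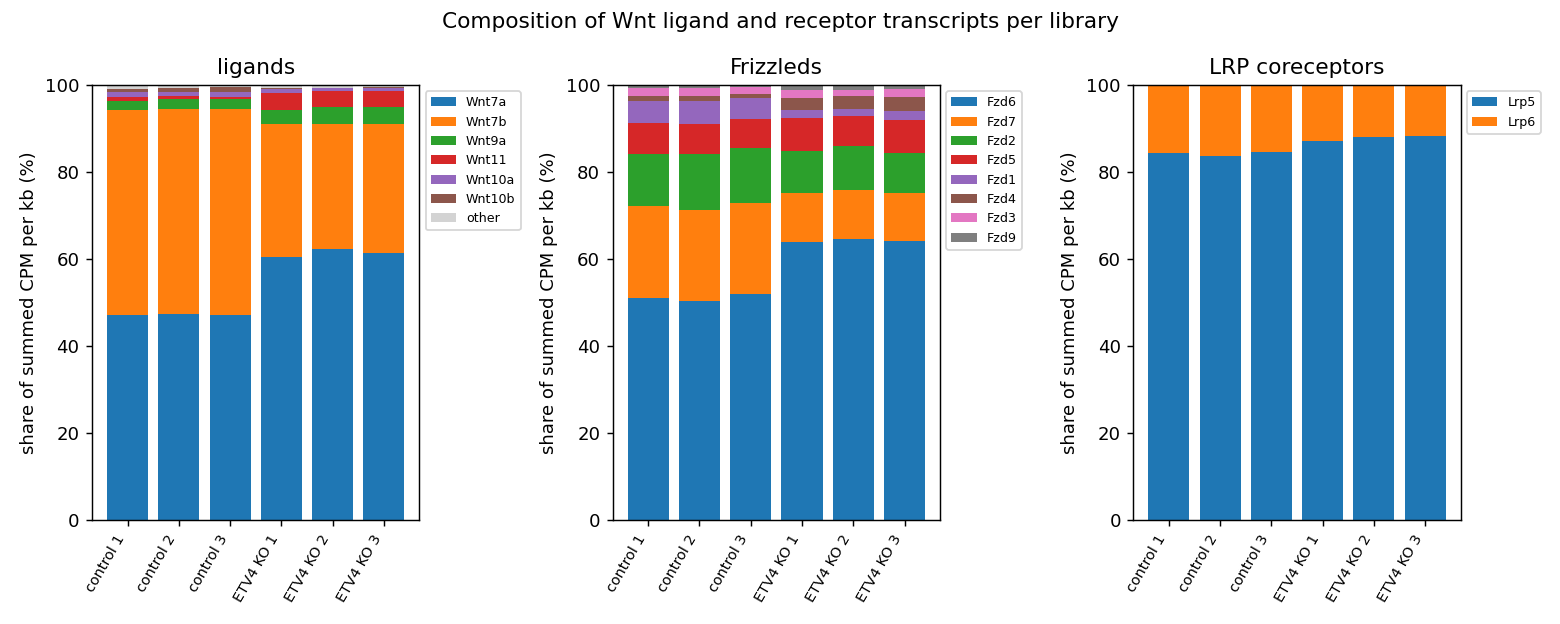
Stacked bars give each gene's share (%) of the summed CPM per kb of exon length in each of the 6 libraries, for ligands, Frizzled receptors and LRP coreceptors. With full-annotation lengths, Wnt7a and Wnt7b hold about equal shares in the controls (47.3% and 47.2%) and unequal ones in ETV4 KO (61.4% and 29.6%), and Fzd6 takes the largest Frizzled share in each library.

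Ordered by level per length in the controls, Lrp5 stood first at 38.1 CPM per kb ± 1.08 (SD, n = 3), before Wnt7a and Wnt7b. The control libraries of Lrp5 (37.2 to 39.3) overlapped those of Wnt7b (36.2 to 37.3), and those of Wnt7a (36.5 to 37.2) overlapped Wnt7b and ended just below Lrp5. Below them came Fzd6 at 30.1 ± 0.711, Fzd7 at 12.3 ± 0.385, Lrp6 at 7.19 ± 0.198, Fzd1 at 3.01 ± 0.175 and Wnt10a at 0.924 ± 0.0497 CPM per kb (SD, n = 3 each). In ETV4 KO, Wnt7a stood first (51.0 to 53.2), before Lrp5 (41.2 to 44.0), Fzd6 (40.7 to 40.9) and Wnt7b (24.4 to 25.9). Fzd7 (6.95 to 7.17), Lrp6 (5.91 to 6.14), Fzd1 (1.07 to 1.27) and Wnt10a (0.573 to 0.793 CPM per kb) followed. Neighbours in this ETV4 KO order did not overlap. The order depended on the annotation. With the shorter exon set of the basic annotation, Lrp5 stood first in both groups (61.8 and 69.5 CPM per kb), Wnt7b stood above Wnt7a in the controls, and Lrp6 (8.63 to 8.96) stood above Fzd7 (6.95 to 7.17) in ETV4 KO.

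The other pathway genes were grouped in lists by their place in the route from ligand to nucleus. Over all 12076 tested genes the median log2 fold change was -0.0038. Of those genes 71.1% were called, 35.0% higher and 36.0% lower, and a list with shares near these is not set apart by its count. The lists were not tested as sets, and the genes named in them were picked among called genes by the size of their change.

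In the list of Wnt acylation and secretion, which also holds Notum, 6 of 10 genes were higher and 2 lower, with a median of 0.18. Porcn, the acyltransferase that adds the lipid to Wnt proteins, had 0.92 (SE 0.16), and its neighbours also had 0.92, and with that median taken out it had 0.0059 and was not called. Wls, the carrier that takes Wnt proteins to the cell surface, was called lower at -0.12 (SE 0.039; -0.38 with the local median taken out). Notum, the secreted enzyme that removes the lipid and so inactivates Wnt proteins, went from 165, 205 and 169 counts to 31, 27 and 17, or -2.92 on the log2 scale (SE 0.16, edgeR adjusted p = 5.29e-16). This was the largest change of that list and ran against its majority. With the local median taken out Notum had -2.41.

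At the cell surface, 4 of 8 tested genes of other receptors and coreceptors were higher and 1 lower. Ror1, a receptor tyrosine kinase-like protein of the non-canonical branch, rose by 2.20 (SE 0.19) from 20 to 25 counts per control library to 95 to 127 in ETV4 KO. Adgra2, an adhesion receptor that with RECK serves as a specific coreceptor for Wnt7a and Wnt7b, rose by 0.82 (SE 0.21) from 1.10 CPM to 1.95 CPM. Reck, named after its value was seen, had -0.23 (SE 0.15, edgeR adjusted p = 0.157) and was called lower only without ETV4 KO replicate 1 (-0.39, adjusted p = 0.0362). Ptk7, a polarity coreceptor, rose by 0.42, or 0.10 with the local median taken out. Lrp4 had -0.58 (SE 0.22, edgeR adjusted p = 0.0203), a call lost with DESeq2 (adjusted p = 0.0701) and without control replicate 1 or 2 or ETV4 KO replicate 1 or 2 (0.0559 to 0.0833).

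Of 6 tested genes for receptor folding and turnover 2 were higher and 4 lower. The R-spondin receptors split, with Lgr4 at 0.53 (SE 0.054; 0.39 with the local median taken out) and Lgr6 at -0.83 (SE 0.040). Mesd, the chaperone that LRP5 and LRP6 need to reach the surface, rose by 0.34 (SE 0.042; 0.22 with the local median taken out). The ubiquitin ligases Rnf43 and Znrf3, which remove Frizzled proteins from the surface, had -0.43 (SE 0.11) and -0.27 (SE 0.058), calls that were lost with the local medians taken out (adjusted p = 0.357 and 0.619).

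Inside the cell, 7 of 20 genes of the Dishevelled and destruction complex list were higher and 10 lower, with a median of -0.12. The Dishevelled genes Dvl1, Dvl2 and Dvl3, named after their values were seen, had -0.31, -0.44 and -0.29. With local medians taken out they had -0.18, -0.023 and -0.16, and Dvl2 was no longer called (adjusted p = 0.658). The scaffold genes Axin1 and Apc2 had 0.46 and 0.68, and the kinase genes Csnk1d and Csnk1g1 had -0.59 and -0.48. Axin1 and Csnk1d had 0.098 and -0.079 with their local medians taken out.

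Among beta-catenin, TCF/LEF and cofactor genes 8 of 16 were higher and 6 lower. Ctnnb1, which encodes beta-catenin and was named after its value was seen, had 633.1 CPM and 643.0 CPM on average and was not called (0.023, SE 0.030, edgeR adjusted p = 0.504; -0.13 and called lower with its local median taken out). Lef1 rose by 2.23 (SE 0.45) from 2 to 4 counts per control library to 14 to 19 in ETV4 KO, and Tcf7l2 rose by 0.78 (SE 0.048) from 33.1 CPM to 56.9 CPM. Tcf7 had -0.48 (SE 0.13) and was not called with its local median taken out (adjusted p = 0.390). The coactivator Bcl9 had -0.70 (SE 0.057), or -0.49 with its local median taken out.

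**Figure D4:**
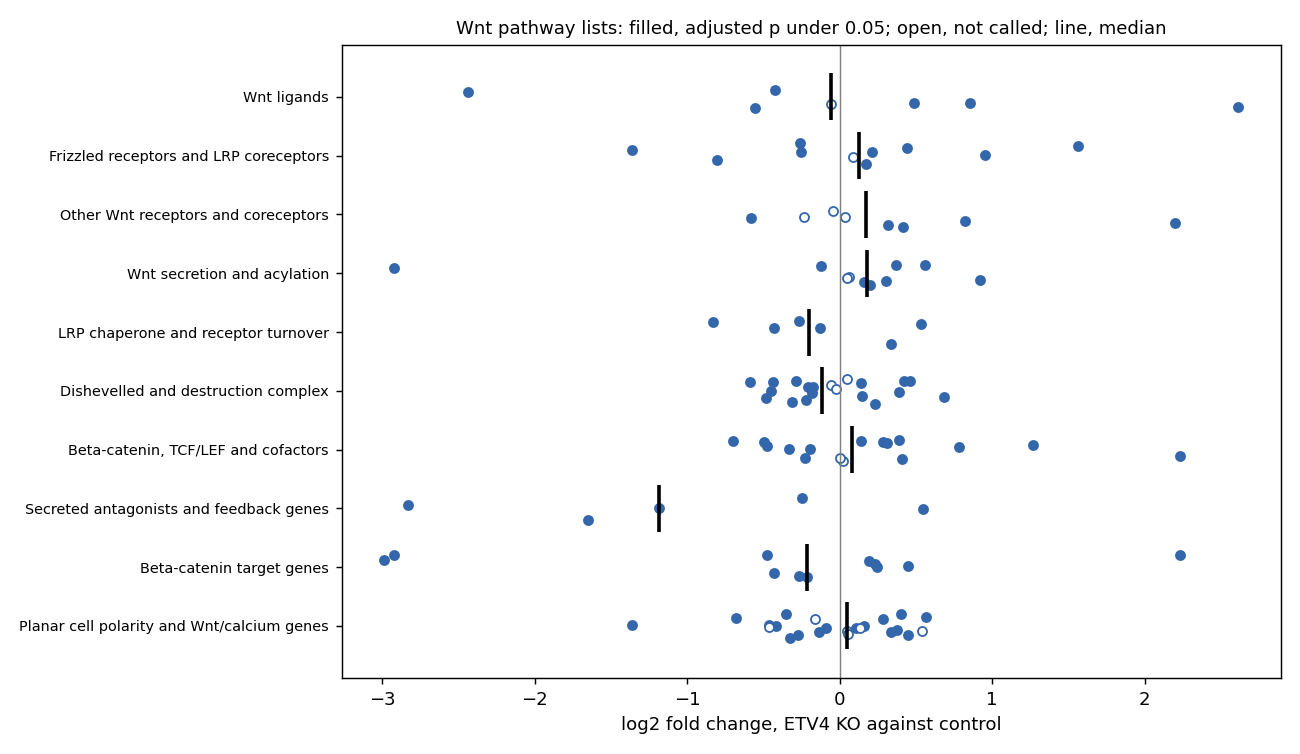
Each point is the log2 fold change of 1 tested gene of a Wnt pathway list, filled where the adjusted p was under 0.05, with the list's median as a line. Medians lie between -0.20 and 0.18 except for beta-catenin target genes (-0.22) and for secreted antagonists and feedback genes (-1.19), where 5 genes were tested.

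Downstream, 5 of 11 tested beta-catenin target genes were higher and 6 lower, so the targets showed no single direction; Lef1, Tcf7, Notum, Rnf43 and Znrf3 are counted here and in a list above. Myc rose by 0.45 (0.15 with its local median taken out) and Cd44 by 0.25 (0.10). Tnfrsf19 had -2.99 (SE 0.48) from few counts, 20, 24 and 11 in the controls and 3, 2 and 2 in ETV4 KO. Axin2, a widely used target gene named after its value was seen, had 0 to 3 counts per library and was not tested. Of 5 tested antagonist and feedback genes 4 were lower, among them Sfrp1, a secreted binder of Wnt proteins, at -2.83 (SE 0.067) from 1094 to 1259 counts per control library to 170 to 176, and Apcdd1 at -1.19 (SE 0.051).

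Of 23 tested genes for planar cell polarity and calcium signalling 8 were higher and 9 lower. Daam1, a formin that binds Dishevelled, rose by 0.56 (SE 0.042), and the cadherin Celsr2 by 0.40 (SE 0.062). Intu, a polarity effector of the cilium, had -1.36 (SE 0.13) and the transcription factor gene Nfatc2 had -0.68 (SE 0.066).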

How the data were processed

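Poly(A) RNA from 3 control and 3 ETV4 KO samples was sequenced. The authors deposited raw read counts per gene symbol, and the unit was read from the whole-number values. Per the submitters' processing notes, the tools included STAR 2.7.9a, featureCounts, FastQC 0.11.9 and R 4.1.1, with mm10 and hg38 as builds. Annotation, strand setting and treatment of multiply mapping reads: not given in the sources used here.

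Columns were matched to samples by library name. Counts were tested with edgeR 4.0.16 in R 4.3.3: filterByExpr (minimum count 10, minimum total 15), TMM, glmQLFit and glmQLFTest on the group, and Benjamini-Hochberg adjustment over 12076 genes, with calls under 0.05. Each SE was taken as |log2 fold change| over the root of its F statistic. CPM are TMM-scaled; per-length levels use exon unions of GENCODE M21, with the basic annotation as an alternative chosen after seeing the data. Local medians are those of the other genes with log2 CPM above 3 in the same 10 Mb bin, and the alternative that takes them out treats them as known. Where a bin held fewer than 10 such genes, the chromosome was used.

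Alternatives were RLE, upper-quartile and library-size scaling, DESeq2 1.42.0, limma-voom (limma 3.58.1), other filters, a replicate block, each library left out, an adjusted p under 0.01, glmTreat at 1.5-fold, and local medians. The edgeR fit was tested on simulated counts, in which far fewer genes changed than were called here. The named genes are all 10 members, the other tested ligands and Frizzleds, and up to 3 called genes per list and direction by size of change, others being marked. The members and lists were chosen with earlier results of these data known.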

Additional observations from a re-analysis of the deposited data

How the results depend on the processing

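Fzd1 and Fzd7 kept direction and call under all 17 alternatives, with log2 fold changes of -1.54 to -1.30 and -0.85 to -0.78. When the change was tested against 1.5-fold (glmTreat), 1684 genes were called in all, with 0 of the 10 genes called higher and 2 lower; Wnt7a (0.49), Wnt7b (-0.56), Wnt10a (-0.43), Fzd6 (0.44), Lrp5 (0.17) and Lrp6 (-0.26) lost their calls there, as their fitted fold is under 1.5. Wnt7a, Wnt7b and Lrp6 kept their calls under the other alternatives. With local 10 Mb medians taken out 1 of the 10 was called higher: Fzd6 (0.050), Lrp5 (0.071) and Wnt10a (-0.32) were no longer called, Fzd2 turned to 0.21 and Ctnnb1 to -0.13; whether local shifts cause these was not tested. Wnt10a was also not called with DESeq2 (-0.43), with no low-count filter (-0.42) or at an adjusted p under 0.01 (-0.43), and ran from -0.56 to -0.32 with 1 library left out; the cause was not tested. Its counts of 35 to 58 per library limit its precision, and Wnt4, fitted without the filter, had -0.74 (adjusted p = 0.646). With a replicate block 8882 genes were called, 3 of the 10 higher and 5 lower. Same-numbered samples deviated together only weakly (r = 0.0252, 0.0545 and 0.0278), though each correlated best with its own number. The labels do not call the numbers pairs, and the reported fit did not treat them as such. Whether numbers mark a shared batch was not tested.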
